A study of Mus musculus with 4 samples.

Results

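The mitochondrial respiratory chain subunits encoded in the nucleus were examined in leukemic stem cells (LSCs) with and without CD37. The members are the protein-coding genes of the deposited table whose mouse symbols begin with Nduf followed by A, B, C, S or V and a number, are Sdha to Sdhd, or begin with Uqcr, Cox4 to Cox8 or Atp5, without the Ndufaf assembly factors. This rule gave 80 of the 17104 rows (79 symbols, since Atp5o names 2 rows), on 19 chromosomes. Complex I has 36 of them, complex II 4, complex III 8, complex IV 14 and complex V 18. The rule used names and no measured value. Cyc1, a subunit of complex III, does not match the rule and is counted below with the electron carriers. Ndufa4 is counted with complex I by its name, although its protein is a subunit of complex IV. Cox6a2, Cox7b2, Cox8b, Cox8c and Ndufa13 also match the rule in the annotation and were not analysed here.

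Complexes I to IV carry electrons from NADH and succinate to oxygen across the inner mitochondrial membrane. Complexes I, III and IV pump protons on the way, complex II does not, and complex V (ATP synthase) uses the proton gradient to make ATP. All but complex II are mosaics, with the electron-carrying or membrane core partly encoded by mitochondrial DNA and most accessory subunits by the nucleus. Leukemic stem cells are commonly described as dependent on oxidative phosphorylation. CD37 is a tetraspanin of the leukocyte surface.

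The study compared the transcriptomes of c-kit+ LSCs that carried or had lost CD37, to ask what CD37 does in acute myeloid leukemia (AML). The 4 libraries are 2 replicates of CD37 fl/fl and 2 of CD37 -/-, each from sorted bone marrow cells (YFP+, c-kit+) of male C57 mice, taken at week 6 of the secondary transplantation. All 4 share the same origin, namely lineage-negative marrow of CD37 fl/fl, Cre+ mice that was infected with a retrovirus for the MLL-AF9 fusion and YFP. Both groups therefore carried the floxed alleles (loxP sites around exons 4 and 5 of Cd37) and a Cre fused to the estrogen receptor at the Rosa26 locus, which is active in all cell types once tamoxifen is given. Tamoxifen given to the recipients of the first transplantation made the CD37 -/- group, and corn oil was given in the CD37 fl/fl group, so that loss of CD37 and exposure to tamoxifen cannot be told apart. Recipients of each transplantation had been irradiated. The age of the mice is not given in the labels, although the study gives an age range for the C57 mice it purchased. The design calls the replicates independent, but the labels do not say whether a replicate is 1 mouse or a pool. With bulk RNA, fewer cells of a type and less RNA per cell cannot be told apart.

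Expression was deposited as FPKM (fragments per kilobase, scaled to depth), whose kilobases were those of the whole gene with its introns, since 99.0% of the values in each library became whole reads with that length. The reads recovered in this way came to between 15139063 and 22562837 per library. Cd37, the deleted gene, kept 44.6% of its CD37 fl/fl mean (FPKM of 56.6 and 46.8 against 23.2 and 22.9), and its row counts reads over the whole gene and not only over the deleted exons. Of 9 myeloid progenitor markers with a row, Elane had between 52812 and 78434 reads per library and Kit, the marker used for sorting, between 213 and 804. Of the other progenitor markers, Mpo (log2 fold change -1.24), Ctsg (-1.01) and Prtn3 (-0.67) had lower values in CD37 -/- without overlap, Cebpa (0.38) and Ly6c2 (0.33) had higher values without overlap, as did Kit (not tested), and Elane, Myb and Fcgr3 overlapped. Itgam, 1 of the 10 markers in that list, was not analysed here. Markers of other cells took up between 0.000655% and 0.0711% of the reads for 7 erythroid genes, and between 0.0122% and 0.180% for 6 dendritic cell and macrophage genes. The erythroid share was higher in CD37 -/- (0.0711% and 0.0189%) than in CD37 fl/fl (0.00727% and 0.000655%), and the dendritic share was highest in CD37 fl/fl replicate 1. The 2 T and NK cell genes took up 0.0113% and 0.0140% of the reads in CD37 fl/fl, against 0.00480% and 0.00492% in CD37 -/-, nearly all from Nkg7, and Cd3d had 8 to 11 reads. The 4 B cell genes took up 0.00453% and 0.00531%, against 0.00309% and 0.00242%, mostly from Cd79b, whereas Cd79a had 6 to 35 reads per library, with more in CD37 -/-. Both shares, like that of the 80 members, were lower in CD37 -/- without overlap. The part of these cells in the results on the respiratory chain was not tested.

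The subunits were measured at widely different levels. Levels are compared between genes as reads per kilobase of the main transcript, scaled to library size (RPKM), and are means of all 4 libraries. This length leaves out introns, but the reads were recovered over the whole gene and may include reads from introns. The median over the 80 members was 155. Atp5e, the epsilon subunit of the rotor stalk of ATP synthase, had the highest level (1129), followed by Cox4i1 (983), the largest nuclear subunit of cytochrome c oxidase, and by Uqcrq (949), a small subunit of complex III. Ndufb7, an accessory subunit in the membrane arm, led complex I (667), and Sdhd, which anchors complex II in the membrane, led complex II (155). By complex, the median level was 331 for complex III, 316 for complex IV, 264 for complex V, 126 for complex I and 95.8 for complex II.

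Most subunits had lower values in CD37 -/- than in CD37 fl/fl LSCs, but none passed the test. Of the 80 members, 74 had a mean FPKM of at least 1 and were tested with limma on log2(FPKM + 1). At an adjusted p under 0.05 (Benjamini-Hochberg over all 6761 genes tested), 0 of the 74 were called, as were 0.0% of all genes, and the lowest adjusted p of a member was 0.130. At an unadjusted p under 0.05, 14 members were lower in CD37 -/- (18.9%) and 0 were higher, while 7.96% of all tested genes were lower and 16.1% were higher. With limma-voom on the recovered reads, 24 of 77 members were lower and 1 was higher at an unadjusted p under 0.05 (all genes: 6.17% lower and 19.1% higher), and the lowest adjusted p was 0.080. After TPM rescaling, in which each library is brought to the same sum, 5 members were lower and 3 higher at this limit (all genes: 2.88% lower and 30.5% higher). With quantile normalization, 19 were lower and 0 higher (all genes: 11.3% lower and 10.4% higher).

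The values of the groups did not overlap for 53 of the 74 members. In 49 of them both CD37 -/- libraries lay below both CD37 fl/fl libraries, which held for 23.7% of all tested genes, and in 4 they lay above, which held for 38.2%. The log2 fold change (CD37 -/- minus CD37 fl/fl) had a median of -0.45 over the members, with quartiles of -0.64 and -0.27, and of 0.11 over all tested genes. It was below 0 for 63 of the 74 members, for 61 with quantile normalization and for 48 after TPM rescaling. The sum of all FPKM values was 260590 and 257393 in CD37 fl/fl, against 217309 and 181944 in CD37 -/-. TPM rescaling therefore moved the median of all genes to 0.49 and that of the members to -0.13. Relative to the median of all genes, 67 members were lower in the deposited scale, 61 with quantile normalization and 67 after TPM rescaling, and the medians differed by -0.56, -0.42 and -0.61.

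**Figure D1:**
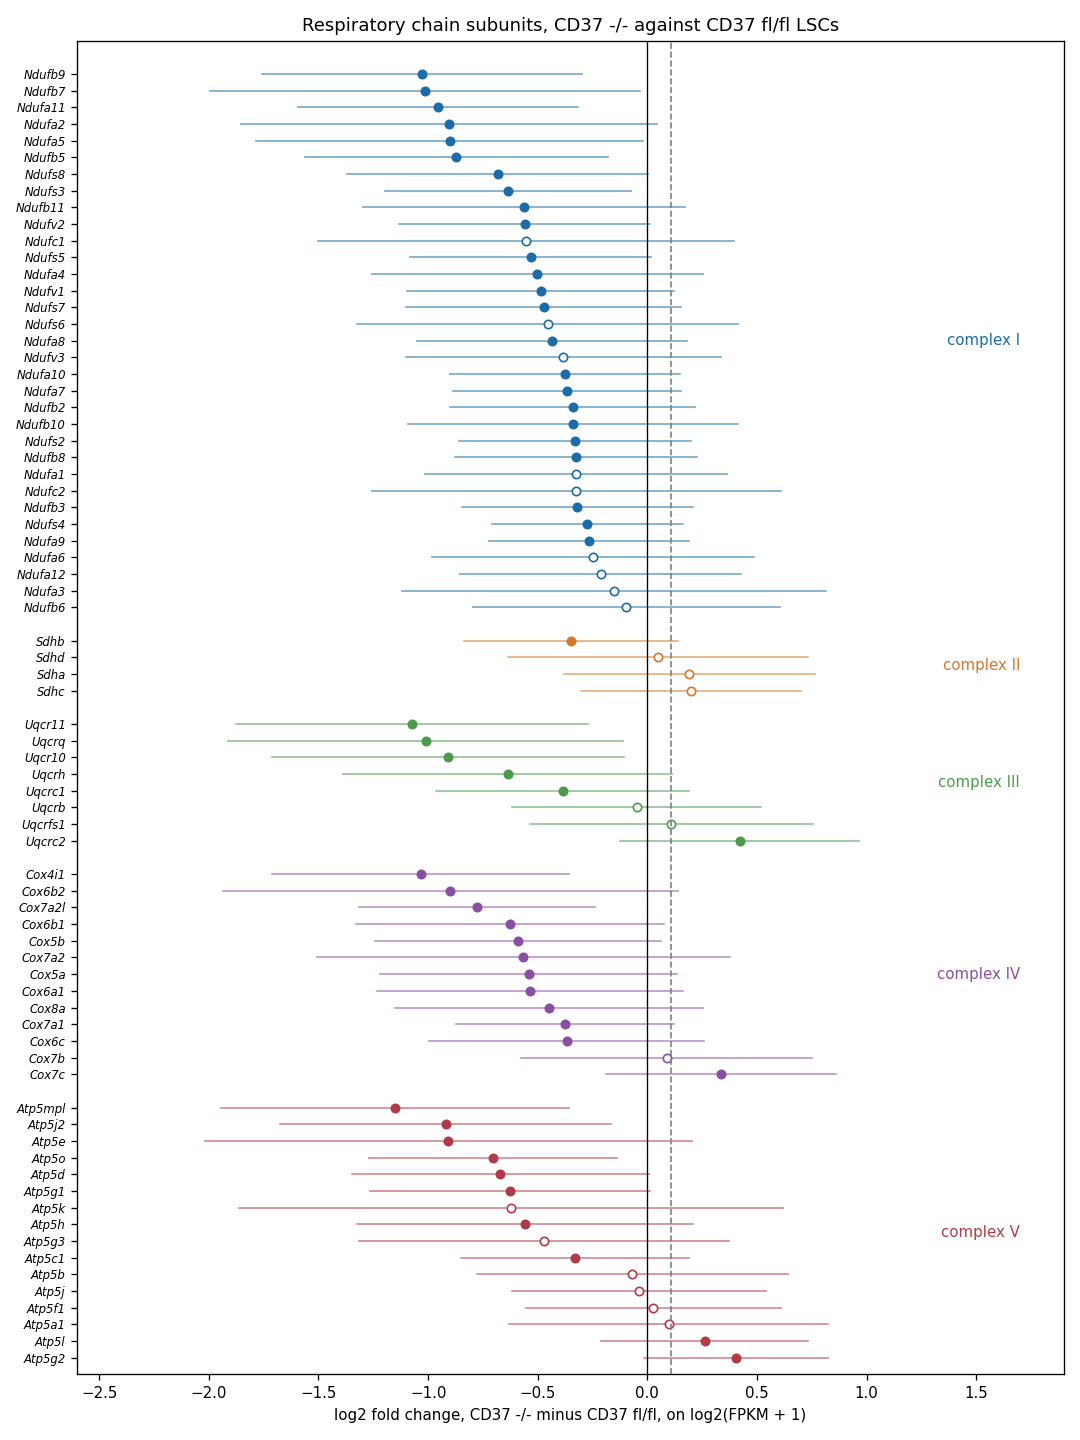
Log2 fold change (CD37 -/- minus CD37 fl/fl, on log2(FPKM + 1)) of the 74 tested subunits by complex, with 95% confidence intervals from limma. Filled points mark the 53 subunits whose groups do not overlap, open points the 21 that overlap, and the dashed line the median of all tested genes (0.11). All 33 tested complex I subunits lie below 0, whereas 3 of the 4 complex II subunits lie above it.

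The CD37 -/- libraries were not alike. CD37 -/- replicate 2 was below CD37 -/- replicate 1 in 67 of the 74 members, and in 3316 of all 6761 tested genes. Relative to the CD37 fl/fl mean, the members had a median offset of -0.21 in CD37 -/- replicate 1 but of -0.67 in CD37 -/- replicate 2, on log2(FPKM + 1). CD37 fl/fl replicates 1 and 2 differed by a median of -0.05. Without CD37 -/- replicate 2, the median log2 fold change was -0.21 for the members and 0.10 for all tested genes. Without CD37 -/- replicate 1, it was -0.67 for the members and 0.11 for all tested genes. Of the members, 49 in CD37 -/- replicate 1 and 62 in CD37 -/- replicate 2 were below both CD37 fl/fl libraries. Of all 6761 tested genes, 1908 and 2322 were. CD37 -/- replicate 2 had the most reads of all libraries.

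**Figure D2:**
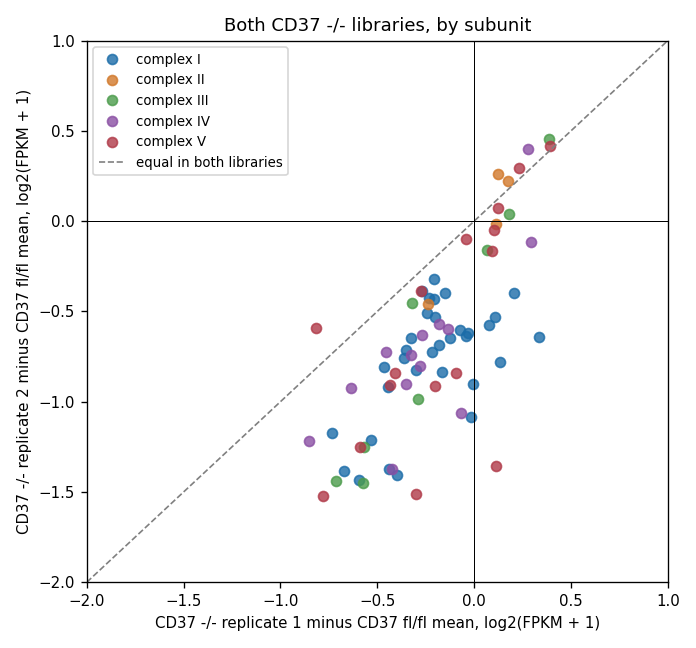
Offset of each tested subunit from the CD37 fl/fl mean on log2(FPKM + 1), in CD37 -/- replicate 1 (horizontal axis) and CD37 -/- replicate 2 (vertical axis), 1 point per subunit, with colors for the complexes. Most points lie below the dashed line of equal offsets (67 of 74).

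As a share of all recovered reads, the 80 members took up 1.796% and 1.87% in CD37 fl/fl, against 1.54% and 1.14% in CD37 -/-. The shares of complex I, III, IV and V were all lower in CD37 -/- without overlap. Complex IV, for instance, took up 0.389% and 0.383% of the reads in CD37 fl/fl, against 0.295% and 0.212% in CD37 -/-. Complex II took up 0.0555% and 0.0723% of the reads in CD37 fl/fl, against 0.0657% and 0.0650% in CD37 -/-, so that its groups overlapped. Among the reads of the members alone, a measure that no scaling of the libraries can change, complex II took up 3.09% and 3.86% in CD37 fl/fl (3.48% ± 0.55, SD, n = 2), against 4.27% and 5.69% in CD37 -/- (4.98% ± 1.01, SD, n = 2). These groups did not overlap, and the two-sided exact permutation test gave p = 0.333, the smallest that 2 against 2 libraries allow. Complex II was not alone in this. Complex V was also higher in CD37 -/- without overlap (32.49% and 35.42% against 36.4% and 38.94%). Complex III (11.64% and 12.14% against 10.99% and 10.85%) and complex IV (21.64% and 20.51% against 19.18% and 18.52%) were lower without overlap. The groups of complex I overlapped (31.14% and 28.06% against 29.16% and 25.99%).

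**Figure D3:**
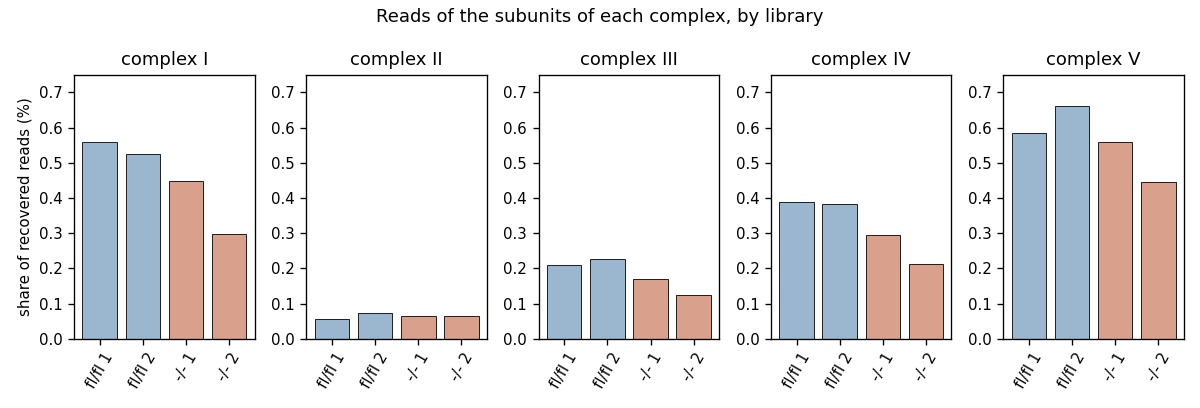
Share of the recovered reads (percent, bars from 0) that fell on the subunits of each complex in each of the 4 libraries, CD37 fl/fl in blue and CD37 -/- in red. Complexes I, III, IV and V are lowest in CD37 -/- replicate 2, and complex II lies between 0.0555% and 0.0723% in all 4 libraries.

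Complex I (NADH dehydrogenase) takes electrons from NADH. All 33 of its tested members had a log2 fold change below 0 (22 of 33 after TPM rescaling), with a median of -0.43. The groups did not overlap for 24 of them, each lower in CD37 -/- (72.7%, against 23.7% of all tested genes). At an unadjusted p under 0.05, 6 were lower (18.2%, against 7.96%). The 6 tested core subunits, which hold the flavin and iron-sulfur clusters or lie at the quinone site, had a median of -0.52, and none overlapped. The 27 accessory subunits had a median of -0.38, and 18 of them did not overlap.

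Ndufb9, an accessory subunit of the membrane arm, had the lowest fold change of complex I. Its FPKM was 15.7 and 13.1 in CD37 fl/fl (14.4 ± 1.78, SD, n = 2), against 8.64 and 4.90 in CD37 -/- (6.77 ± 2.65, SD, n = 2). Both CD37 -/- libraries lay below both CD37 fl/fl libraries, with a log2 fold change of -1.03 (standard error 0.30, adjusted p = 0.138), although 19.5% of its exon bases also lie in another gene on the same strand. Ndufb7 FPKM was 135 and 86.5 in CD37 fl/fl, against 71.4 and 39.4 in CD37 -/-. The spread within its groups was wide, at a log2 fold change of -1.01 (standard error 0.40, adjusted p = 0.198). Next came Ndufa11, which ties the membrane arm together, with an FPKM of 27.7 and 23.6 in CD37 fl/fl and of 15.0 and 10.8 in CD37 -/-. Among the core subunits, Ndufs8, an iron-sulfur protein, had the lowest value at -0.68 (FPKM of 55.3 and 48.7 against 37.9 and 27.0).

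The accessory subunits Ndufb6 and Ndufa3 stood closest to 0 in complex I. Ndufb6 FPKM was 4.96 and 7.01 in CD37 fl/fl, against 6.98 and 4.24 in CD37 -/-, with a log2 fold change of -0.10 (standard error 0.28, adjusted p = 0.854). Ndufa3 FPKM was 50.6 and 37.6 in CD37 fl/fl, against 55.3 and 27.7 in CD37 -/-. With a log2 fold change of -0.15 (standard error 0.39, adjusted p = 0.830) for Ndufa3, the groups of both genes overlapped, and both signs turned after TPM rescaling (0.25 and 0.22). Ndufa4, the complex IV subunit named as a complex I protein, had an FPKM of 48.8 and 47.0 in CD37 fl/fl and of 42.5 and 26.4 in CD37 -/-, a log2 fold change of -0.50 (adjusted p = 0.345).

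Ndufs1 went the other way from the rest of complex I. It encodes the largest iron-sulfur subunit of the arm that oxidizes NADH (ENSMUSG00000025968, chromosome 1, 63143596 to 63176833, GRCm38) and was not tested, since its mean FPKM was under 1. Its FPKM was 0.181 and 0.471 in CD37 fl/fl (0.326 ± 0.205, SD, n = 2), against 0.951 and 1.21 in CD37 -/- (1.08 ± 0.186, SD, n = 2), from 92, 271, 561 and 913 reads. Both CD37 -/- libraries were above both CD37 fl/fl libraries, and the CD37 -/- mean was 3.33-fold of the CD37 fl/fl mean. With all genes above 0 in the limma fit, the log2 fold change was 0.66 (adjusted p = 0.268), and with limma-voom on the reads it was 1.86 (standard error 0.45, adjusted p = 0.082). Among the reads of the 7 core subunits of complex I, Ndufs1 took up 0.576% and 1.40% in CD37 fl/fl, against 3.67% and 5.94% in CD37 -/-. The groups of this share did not overlap either (two-sided exact permutation p = 0.333). Its level of 9.08 RPKM was the lowest of the core subunits, and its main transcript of 2590 bases the longest in complex I.

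The other untested members of complex I were Ndufb4 and Ndufa4l2. Ndufb4 had 80, 137, 122 and 91 reads, with overlapping groups, and 37.0% of its transcript is found at other loci. Ndufa4l2, a paralog of Ndufa4, held 1 and 8 reads in CD37 fl/fl, against 0 and 1 in CD37 -/-. These values are too few for a comparison.

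Complex II (succinate dehydrogenase) belongs both to the respiratory chain and to the citric acid cycle and has no subunit from mitochondrial DNA. The median log2 fold change of its 4 genes was 0.12, close to that of all tested genes (0.11). At an unadjusted p under 0.05, 0 were lower or higher, against 7.96% and 16.1% of all tested genes. Without CD37 fl/fl replicate 1, in which Sdha, Sdhc and Sdhd were lower than in the 3 other libraries, the median was -0.12. Sdha, the flavoprotein that oxidizes succinate, had an FPKM of 6.497 and 9.03 in CD37 fl/fl and of 8.44 and 9.39 in CD37 -/-, with a log2 fold change of 0.19 (standard error 0.23, adjusted p = 0.625). Its groups overlapped.

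Sdhb, the iron-sulfur subunit that passes electrons on, was the exception. Its FPKM was 7.91 in both CD37 fl/fl libraries and 6.57 and 5.49 in CD37 -/-, and the groups did not overlap. It had a log2 fold change of -0.35 (standard error 0.20, adjusted p = 0.315). Sdhc, a membrane anchor, had an FPKM of 3.09 and 4.26 in CD37 fl/fl and of 4.23 and 4.42 in CD37 -/- (log2 fold change 0.20, standard error 0.20, adjusted p = 0.558). Sdhd, the other anchor, had an FPKM of 20.3 and 30.1 in CD37 fl/fl and of 26.8 and 24.5 in CD37 -/- (log2 fold change 0.05, standard error 0.28, adjusted p = 0.928). The groups of both anchors overlapped.

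Complex III (cytochrome bc1) passes electrons from ubiquinol to cytochrome c. Of its 8 members, 6 had a log2 fold change below 0, and the median of the 8 was -0.51. At an unadjusted p under 0.05, 3 were lower (37.5%, against 7.96% of all tested genes). The main transcripts of the 8 members ranged from 405 bases for Uqcrq to 1896 bases for Uqcrc2. Uqcr11, a small subunit, had an FPKM of 84.4 and 76.5 in CD37 fl/fl (80.4 ± 5.56, SD, n = 2), against 48.7 and 29.0 in CD37 -/- (38.8 ± 13.9, SD, n = 2). It had a log2 fold change of -1.07 (standard error 0.32, adjusted p = 0.145), with no overlap. Uqcrq FPKM was 163 and 183 in CD37 fl/fl, against 116 and 62.7 in CD37 -/-, a log2 fold change of -1.01 (standard error 0.36, adjusted p = 0.176). Uqcr10, likewise small, had a log2 fold change of -0.91 (adjusted p = 0.173), so that all 3 stood near 50% of the CD37 fl/fl mean (48.3%, 51.6% and 54.3%).

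Uqcrc2 and Uqcrfs1 were the members of complex III above 0. Uqcrc2, a core protein on the matrix side, had the highest log2 fold change of all tested members on log2(FPKM + 1). With limma-voom, Atp5g2 of complex V stood above it (0.69 against 0.50). Uqcrc2 FPKM was 3.83 and 5.52 in CD37 fl/fl, against 6.33 and 6.70 in CD37 -/-, with no overlap. It had a log2 fold change of 0.42 (standard error 0.22, adjusted p = 0.287). Of its exon bases, 19.7% lie opposite another gene. Uqcrc1, the other core protein, had a log2 fold change of -0.39 (adjusted p = 0.342). Uqcrfs1, the Rieske iron-sulfur protein, had an FPKM of 18.7 and 26.0 in CD37 fl/fl and of 25.0 and 22.6 in CD37 -/- (log2 fold change 0.11, standard error 0.26, adjusted p = 0.817), and its groups overlapped.

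Complex IV (cytochrome c oxidase) reduces oxygen to water. Of its 13 tested members, 11 had a log2 fold change below 0, and the median was -0.54. The same 11 were lower in CD37 -/- without overlap (84.6%, against 23.7% of all tested genes). Cox4i1 (ENSMUSG00000031818, chromosome 8, 120668222 to 120674207, GRCm38) had the lowest adjusted p of all members. Its FPKM was 163 and 163 in CD37 fl/fl (163 ± 0.40, SD, n = 2), against 90.0 and 69.6 in CD37 -/- (79.8 ± 14.5, SD, n = 2), from 14992, 16890, 9560 and 9424 reads. Both CD37 -/- libraries were far below the CD37 fl/fl libraries, with a log2 fold change of -1.03 (standard error 0.27, adjusted p = 0.130) and 48.9% of the CD37 fl/fl mean left.

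Cox7b and Cox7c, small subunits of the membrane part, were the 2 tested members of complex IV above 0. Cox7b FPKM was 28.5 and 34.2 in CD37 fl/fl, against 38.4 and 28.7 in CD37 -/-, with overlap (log2 fold change 0.09, standard error 0.27, adjusted p = 0.858). Cox7c FPKM was 12.4 and 13.2 in CD37 fl/fl, against 15.7 and 17.2 in CD37 -/-, without overlap (log2 fold change 0.34, standard error 0.21, adjusted p = 0.358). The Cox7c row held between 398 and 811 reads per library, and 53.0% of the stretches of 50 bases in its transcript are also found at other loci.

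Several subunits have isoforms encoded by paralogs. Cox4i1 (983 RPKM) far exceeded Cox4i2 (0.505), the isoform known from lung and low oxygen, which held 8 and 11 reads in CD37 fl/fl, against 3 and 3 in CD37 -/- and was not tested. Cox6b1, the common form of a subunit that faces the intermembrane space, had an FPKM of 51.6 and 50.2 in CD37 fl/fl and of 39.6 and 26.8 in CD37 -/- (log2 fold change -0.63, standard error 0.28, adjusted p = 0.236). Cox6b2, the form known from testis, was also detected and had an FPKM of 44.8 and 26.3 in CD37 fl/fl and of 25.4 and 12.7 in CD37 -/- (log2 fold change -0.90, standard error 0.42, adjusted p = 0.246). It made up 10.8% and 6.85% of the reads of both forms in CD37 fl/fl, against 8.25% and 6.21% in CD37 -/-, with overlap, so that a change in their ratio was not detectable.

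Of the Cox7a forms, Cox7a2, the one found in most tissues, was the most abundant (450 RPKM). Its FPKM was 78.3 and 73.9 in CD37 fl/fl, against 72.5 and 35.9 in CD37 -/- (log2 fold change -0.57, standard error 0.38, adjusted p = 0.389). Cox7a2l, which binds complex IV to complex III in supercomplexes, had an FPKM of 13.2 and 14.5 in CD37 fl/fl and of 8.54 and 6.82 in CD37 -/- (log2 fold change -0.78, standard error 0.22, adjusted p = 0.135). Cox7a1, the form of heart and muscle, was low at 10.8 RPKM, with 72, 92, 74 and 62 reads and a log2 fold change of -0.38 (adjusted p = 0.294). All 3 were lower in CD37 -/- without overlap.

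**Figure D4:**
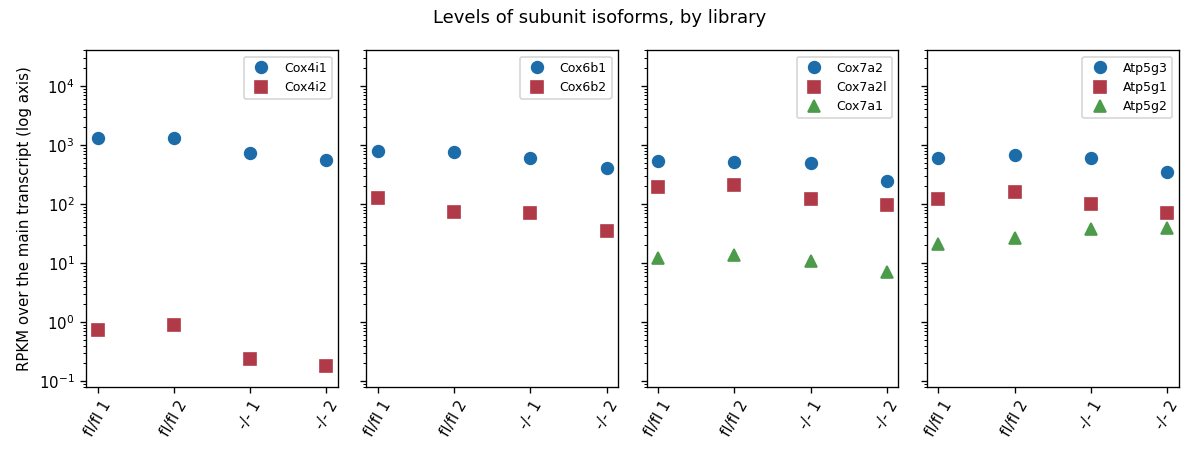
Levels of paralogous isoforms in each library, in RPKM over the main transcript on a log axis, for the families of Cox4i, Cox6b, Cox7a and Atp5g. Within each family the order of the isoforms is the same in all 4 libraries, and Atp5g2 is the only isoform shown whose points are higher in CD37 -/- than in CD37 fl/fl.

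Complex V (ATP synthase) consists of the F1 head, the stalks and the membrane part with its ring of c subunits. Of its 16 tested members, 12 had a log2 fold change below 0, and the median was -0.51. Without overlap, 8 were lower (50.0%, against 23.7% of all tested genes) and 2 were higher (12.5%, against 38.2%). Atp5mpl, a small protein of the membrane part (ENSMUSG00000021290, chromosome 12, 111961375 to 111966977, GRCm38), had the lowest fold change of all members. Its FPKM was 47.4 and 54.3 in CD37 fl/fl (50.9 ± 4.88, SD, n = 2), against 29.1 and 17.0 in CD37 -/- (23.1 ± 8.54, SD, n = 2). The groups lay well apart, with a log2 fold change of -1.15 (standard error 0.32, adjusted p = 0.135).

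Atp5j2, subunit f of the membrane part, had an FPKM of 55.2 and 51.1 in CD37 fl/fl and of 35.0 and 21.7 in CD37 -/- (log2 fold change -0.92, standard error 0.31, adjusted p = 0.160). Atp5e FPKM was 219 and 176 in CD37 fl/fl, against 159 and 68.1 in CD37 -/- (log2 fold change -0.91, standard error 0.45, adjusted p = 0.265). Neither overlapped, although the CD37 -/- libraries of Atp5e differed more from each other than the groups did. In the F1 head, the catalytic beta chain Atp5b and the alpha chain Atp5a1 stood near 0 (-0.07 and 0.10), whereas the gamma chain Atp5c1 was at -0.33, the delta chain Atp5d at -0.67 and Atp5e at -0.91. Of the stalk, Atp5o, which ties the head to the stator, was at -0.70 and Atp5f1, subunit b, at 0.03.

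The 3 genes of the c ring differ in their leader peptides and encode the same mature protein. Atp5g3 was the most abundant (559 RPKM), with an FPKM of 147 and 169 in CD37 fl/fl and of 147 and 87.4 in CD37 -/- (log2 fold change -0.47, standard error 0.34, adjusted p = 0.419). Atp5g1 FPKM was 10.4 and 13.9 in CD37 fl/fl, against 8.80 and 6.25 in CD37 -/- (log2 fold change -0.63, standard error 0.26, adjusted p = 0.212). Atp5g2 FPKM was 0.963 and 1.24 in CD37 fl/fl, against 1.752 and 1.802 in CD37 -/- (log2 fold change 0.41, standard error 0.17, adjusted p = 0.214). Groups did not overlap for Atp5g1, which was lower, and for Atp5g2, which was higher in CD37 -/-. Atp5l, subunit g of the membrane part, was the other complex V gene above 0 without overlap, with an FPKM of 2.22 and 1.55 against 2.37 and 2.51 (log2 fold change 0.26, standard error 0.19, adjusted p = 0.420).

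Not tested were Atp5s, a coupling factor, with an FPKM between 0.496 and 0.671 in all libraries, and the second Atp5o row, which was near 0 and shares 54.2% of its exon bases with a neighbouring gene on the same strand. The groups of both overlapped.

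Many of these genes have processed copies elsewhere in the genome, and reads from a gene and its copy cannot always be told apart. For 13 members, at least 20% of the stretches of 50 bases in the main transcript are found at other loci. Atp5g2 had the largest share (100%), followed by Atp5l (68.5%), Atp5g1 (66.0%) and Cox7c (53.0%). Thus 3 of the 4 tested members that were higher in CD37 -/- without overlap, all but Uqcrc2, are among the 4 with the most shared sequence. Over the 12 tested members of this kind the median log2 fold change was -0.29, and 4 of 12 were above 0. Over the other 62 it was -0.46, and 7 of 62 were above 0.

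Some copies held more reads than the gene. Gm10221, a processed pseudogene with 52.5% of the Atp5l stretches, held 1987, 2581, 1935 and 1973 reads (CD37 fl/fl first), against 279, 220, 344 and 465 for Atp5l. Gm10039, with 61.2% of the Atp5g1 stretches, had 3809, 4985, 3364 and 4439 reads, against 1088, 1637, 1065 and 965 for Atp5g1. Values of these members are uncertain for this reason. The reads given here are not scaled to the library totals. These totals were 15139063 and 17252340 in CD37 fl/fl, against 17638604 and 22562837 in CD37 -/-. Scaled to them, Gm10221, Gm10039 and Atp5g1 were lower in CD37 -/- without overlap, whereas Atp5l was higher.

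Respiratory chain transcripts are short, and fold changes in these libraries differed by transcript length. The median length of the main transcript was 723 bases for the members and 2080 bases for all tested genes. When the tested protein-coding genes were divided into 4 classes of like size by length (255 to 1513, 1514 to 2366, 2367 to 3523 and 3527 to 19823 bases), their median log2 fold changes were -0.26, 0.06, 0.23 and 0.28. After TPM rescaling these medians were 0.07, 0.43, 0.64 and 0.71, so that the shortest class was no longer below 0 but still below the median of all genes (0.49). Genes of the shortest class took up 31.1% and 27.6% of the reads in CD37 fl/fl, against 25.4% and 20.04% in CD37 -/-. CD37 -/- replicate 2, the library with the lowest values of the members, was also the lowest in this share.

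Below 1000 bases, the median was -0.54 for 50 members and -0.39 for 559 other tested protein-coding genes, with median lengths of 593 and 762 bases. At an unadjusted p under 0.05, 22.0% of these members and 25.4% of the other genes were lower, and 74.0% and 54.6% were lower without overlap. From 1000 bases, the median was -0.30 for 24 members and 0.15 for 5135 other genes, but these classes are not of like length (medians of 1593 and 2583 bases). Here 12.5% of the members and 4.42% of the other genes were lower at an unadjusted p under 0.05, and 50.0% and 18.9% were lower without overlap. Across the 74 members, length and fold change had a Pearson r of 0.40 and a Spearman rho of 0.32, and across 5694 other genes 0.38 and 0.40. Genes are not independent replicates, and all these points come from the same 4 libraries. Complex II has long transcripts for a respiratory complex (1142 to 3171 bases), as do Uqcrc2 (1896 bases), Atp5a1 (2471 bases) and Ndufs1 (2590 bases). The part of transcript length in the lower values of the members was not tested.

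**Figure D5:**
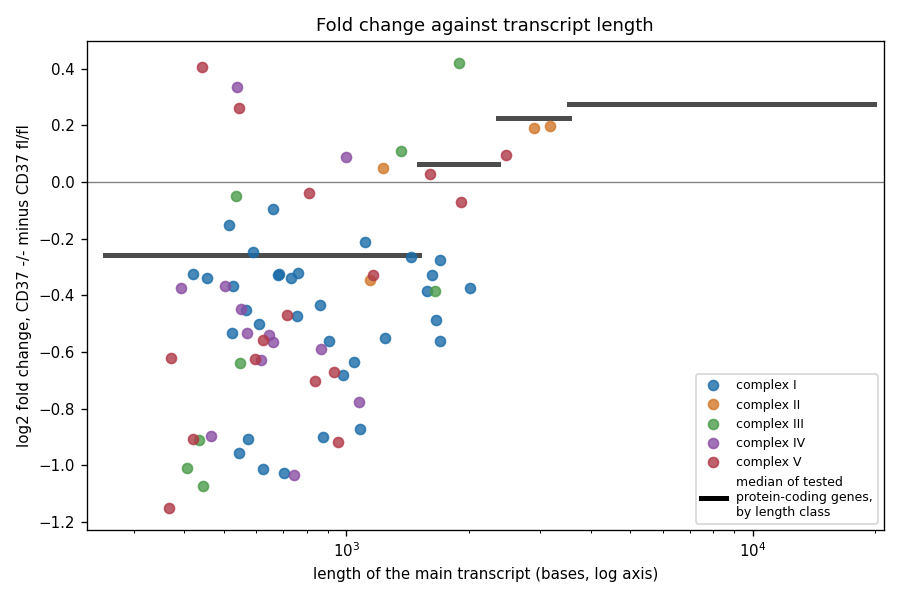
Log2 fold change (CD37 -/- minus CD37 fl/fl) of the 74 tested subunits against the length of the main transcript in bases (log axis), with colors for the complexes. Black lines give the median of all tested protein-coding genes in each of 4 length classes, from -0.26 in the shortest to 0.28 in the longest, and most subunits lie in the shortest class and below its line.

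Mitochondrial ribosomal proteins, which make the subunits encoded in mitochondrial DNA, also mostly had lower values in CD37 -/-. Of 66 tested, 57 had a log2 fold change below 0 and 13 (19.7%) were lower at an unadjusted p under 0.05, with a median of -0.39, while 7.96% of all tested genes were lower at this limit and 2783 of 6761 were below 0. After TPM rescaling, 40 were below 0 and the median was -0.06. Relative to the CD37 fl/fl mean, their median offset was -0.18 in CD37 -/- replicate 1 but -0.57 in CD37 -/- replicate 2. Their share of all reads was 0.696% and 0.737% in CD37 fl/fl, against 0.591% and 0.428% in CD37 -/-. A difference between them and the respiratory chain was not tested.

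Genes that build or supply the chain gave mixed values. Of 28 tested assembly factors, which insert cofactors and subunits, 20 were below 0, with a median of -0.19. At an unadjusted p under 0.05, 2 were lower (7.14%, against 7.96% of all tested genes) and 1 was higher (3.57%, against 16.1%). The sign of the median depended on the scaling, with 0.06 (10 below 0) after TPM rescaling and -0.37 (22 below 0) with quantile normalization. They ranged from Uqcc3, a complex III factor (log2 fold change -0.77, adjusted p = 0.194), to Cox15, which makes heme A for complex IV (0.88, adjusted p = 0.121). Cox15 had an FPKM of 0.519 and 1.01 in CD37 fl/fl and of 1.84 and 2.63 in CD37 -/-, so that its groups did not overlap. Of 11 tested genes for electron carriers and coenzyme Q synthesis, 5 were below 0 and the median was 0.04, or -0.12 (9 below 0) with quantile normalization. Among them was Cyc1, the complex III subunit outside the name rule, at -0.20 with overlapping groups (adjusted p = 0.655). Cycs, cytochrome c itself, was the lowest at -0.81 (FPKM of 5.74 and 7.03 against 4.20 and 2.38, adjusted p = 0.157), and Etfdh, which feeds electrons from fat oxidation into ubiquinone, the highest at 0.31.

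Of 10 tested regulators of mitochondrial biogenesis, 8 had a log2 fold change above 0, as did 3978 of all 6761 genes, and 4 were below the median of all genes. At an unadjusted p under 0.05, 3 were higher (30.0%, against 16.1% of all genes), and 40.0% were higher without overlap, against 38.2% of all genes. The median was 0.20, or 0.01 with quantile normalization, and the median length of their main transcripts was 3961 bases. Polg, the polymerase of mitochondrial DNA, had the highest value, with an FPKM of 1.66 and 1.42 in CD37 fl/fl and of 3.82 and 5.26 in CD37 -/- (log2 fold change 1.11, standard error 0.20, adjusted p = 0.079). Both CD37 -/- libraries were above both CD37 fl/fl libraries. Polg2, its accessory subunit, was the lowest at -0.35 (adjusted p = 0.251). The 13 subunits encoded in mitochondrial DNA, the assembly factors Ecsit, Foxred1, Sco2, Cox16, Cox17 and Pet117 and the coactivator Ppargc1a were not analysed here.

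NRF1, the ETS factor GABP and YY1 are known regulators of respiratory chain promoters. Promoters (300 bases, from 250 before to 50 after the start, RefSeq on GRCm38.p6) were matched for 65 of the 79 symbols. The NRF1 motif (GCGC and GCGC with AT between them), which reads alike on both strands, was in 5 of the 65 (7.69%), in 2.77% of 4544 other tested genes and in 1.07% of all 27025 promoters. The ETS motif ccggaag, on either strand, was in 16 (24.6%), against 25.9% of other tested genes and 9.93% of all. The YY1 motif atggcggc, on either strand, was in 6 (9.23%), against 6.93% and 2.60%. The median log2 fold change was -0.53 for the 5 members with the NRF1 motif and -0.45 for the 58 tested without, and -0.59 for the 16 with the ETS motif and -0.39 for the 47 without. For YY1 it was -0.41 for the 6 with the motif and -0.47 for the 57 without. Such matches of letters are a description and not evidence of binding.

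Among the members, Atp5k, subunit e of ATP synthase, and Cox6a1, a subunit of complex IV, were the ones with 2 of these motifs in the window, and their promoters are shown for this reason, on the minus strand at chr5:108434350-108434649 and chr5:115348909-115349208. Capitals mark the NRF1 motif and, behind it, the ETS motif as read on the opposite strand.
Atp5k: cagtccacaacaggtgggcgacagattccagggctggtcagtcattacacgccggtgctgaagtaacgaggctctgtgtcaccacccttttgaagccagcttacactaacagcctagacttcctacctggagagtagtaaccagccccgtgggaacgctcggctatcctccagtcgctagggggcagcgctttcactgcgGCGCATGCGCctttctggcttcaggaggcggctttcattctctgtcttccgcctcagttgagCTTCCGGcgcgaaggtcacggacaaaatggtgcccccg
Cox6a1: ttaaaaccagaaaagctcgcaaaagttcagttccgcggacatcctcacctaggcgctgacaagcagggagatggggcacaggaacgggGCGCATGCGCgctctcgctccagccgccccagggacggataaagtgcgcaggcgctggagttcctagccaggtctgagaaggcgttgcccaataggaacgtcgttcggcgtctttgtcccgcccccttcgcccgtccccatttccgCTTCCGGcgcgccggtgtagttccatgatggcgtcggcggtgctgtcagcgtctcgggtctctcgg
Cox6a1 FPKM was 138 and 125 in CD37 fl/fl, against 105 and 78.3 in CD37 -/-, a log2 fold change of -0.53 (standard error 0.28, adjusted p = 0.290) without overlap. Atp5k FPKM was 206 and 210 in CD37 fl/fl, against 225 and 80.8 in CD37 -/-, a log2 fold change of -0.62 (standard error 0.50, adjusted p = 0.463). With CD37 -/- replicate 1 the highest and CD37 -/- replicate 2 the lowest of the 4 libraries, Atp5k was the member in which both CD37 -/- libraries lay farthest apart.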

How the data were processed

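Gene expression of 4 libraries was deposited as 1 table of FPKM, which the authors made with 1 column per library and without a log or pooling. The submitters' processing notes name fastp 0.20.1, STAR 2.7.7a, featureCounts 2.0.0, edgeR and the build mm39. The values became whole reads (within 0.05 reads, met by 10% of values by chance) with gene spans of GENCODE M21 on GRCm38, which was used for names (17045 of 17104 identifiers, 99.7%), positions and lengths. Libraries were strand-specific, and the strand setting of the counting is not given in the sources used here. A gene whose exons lie opposite another gene may therefore hold reads of both.

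The 6761 genes that reached a mean of 1 FPKM were tested two-sided on log2(FPKM + 1) in limma 3.58.1 (R 4.3.3; lmFit, then eBayes with a trend), at a threshold of 0.05 after Benjamini-Hochberg adjustment. This scale understates the change of genes with low FPKM. Standard errors and 95% intervals are limma's. Recovered reads (per gene, 15139063 to 22562837 in all) served for depth, levels and limma-voom (mean of at least 10 reads), and they are implied by the deposited values. The smallest read count of a tested member in a library was 62. The replicates of a group differed by far more than sampling noise (chi-square per degree of freedom 93.4 in CD37 fl/fl and 61.0 in CD37 -/-). As the labels do not tie the replicates to animals, p-values measure the spread between these libraries. The main transcript is the shortest principal transcript with the best support. Promoters came from RefSeq. Tables and plots came from matplotlib 3.10.9, scipy 1.17.1, numpy 2.4.6, pandas 2.3.3 and Python 3.11.15, and the code was tested on simulated data.

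Named with values are the 2 largest and 2 smallest fold changes of each complex, all of complex II, isoform families, the highest level of each complex and the members below the FPKM limit. Other members are named as examples and were chosen after their values were seen. The members, lists and rules were chosen with earlier results of these data known. Marker lists covered myeloid progenitor, erythroid, B cell, T and NK cell, and dendritic cell and macrophage genes. Alternatives were limma-voom, FPKM with exon length, each library left out, a block for the replicate number, robust eBayes or eBayes with no trend, scaling by the upper quartile, to TPM or by quantiles, a pseudocount of 0.1, a limit of 5 FPKM, no limit at all and, added after the data were seen, members with under 20% of shared sequence. The labels do not state that replicate numbers pair the samples.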

Additional observations from a re-analysis of the deposited data

How the results depend on the processing

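No member passed an adjusted p under 0.05 in limma under any alternative, the libraries left out in turn included (0 to 0), where 14 were lower and 0 higher at an unadjusted p under 0.05 in the fit reported. The number lower was 5 after TPM rescaling, 22 after division by the upper quartile, 24 with limma-voom and 3 to 32 with 1 library left out (5 without CD37 fl/fl replicate 1, 4 without CD37 fl/fl replicate 2, 32 without CD37 -/- replicate 1 and 3 without CD37 -/- replicate 2). The number higher was 1 with all genes above 0, 3 after TPM rescaling, 2 with exon length and 1 with limma-voom. Shares of all genes at this limit are given above for the fit reported, limma-voom, TPM rescaling and quantile normalization. For the other alternatives they are not given, so their counts are not read as a result about the members. With the replicate number as a block, 15 were lower and 0 higher. The labels do not state that these numbers pair the samples. The differences between replicates 1 and 2 had a correlation of -0.04 between the groups over 6761 genes. With 2 libraries a group, this value cannot show whether samples were paired. Leaving out a library leaves a group with 1 sample, which is assumed to vary like the other group.

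The median log2 fold change of the tested members was -0.13 after TPM rescaling and ranged from -0.67 to -0.21 with 1 library left out, without CD37 -/- replicate 1 and without CD37 -/- replicate 2. Members with under 20% of shared sequence had a median of -0.46. After TPM rescaling, 48 of the 74 tested members were below 0, against 63 in the fit reported. Members outside the naming rules above turned too, such as Atp5b, at 0.31 after TPM rescaling against -0.07. Among complexes and members under those rules, signs turned after TPM rescaling for Ndufa3 (0.22) and Ndufb6 (0.25). The sign of Sdhd turned after division by the upper quartile (-0.0043). With 1 library left out, signs turned within the range of complex II (-0.12 to 0.35), Cox7b (-0.12 to 0.29), Ndufa3 (-0.64 to 0.34), Ndufb6 (-0.40 to 0.21), Sdha (-0.0187 to 0.40), Sdhd (-0.22 to 0.32) and Uqcrfs1 (-0.12 to 0.34). Single values of the other sign were -0.04 for Cox7b and 0.06 for Ndufa3 without CD37 fl/fl replicate 1, 0.12 for Ndufb6 without CD37 fl/fl replicate 2, and -0.01 for Sdhd without CD37 -/- replicate 1. These results lay between -0.15 and 0.19 in the fit reported. Causes of these moves were not tested. With 2 libraries a group, 2 residual degrees of freedom limit the precision of every value.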
